A study of Rattus norvegicus with 12 samples.

Results

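The AP-1 and EGR immediate early factors are 10 genes, namely Fos, Fosb, Fosl1, Fosl2, Jun, Junb, Jund, Egr1, Egr2 and Egr3. They were taken as every probe set (a set of short probes summarised to 1 value) that the array annotation gives one of these symbols and no other, which gave 17 probe sets of the 31042 that were tested, and all 10 genes were represented among the 14217 genes with such a probe set. Colony cells were F111 cells kept 16 h in suspension, then 7 days in soft agar, released from the agar and allowed to attach briefly before RNA was made. A16 cells were F111 cells attached to plastic for 16 h. F111 is an established line of rat (Fischer strain) fibroblasts, and both groups were kept in the same medium with 10% fetal calf serum. Each group had 3 Affymetrix rat arrays of 2 cultures, and arrays are given throughout in the order biological replicate 1, technical replicate 2, biological replicate 2. The technical array carries no biological number and was averaged with biological replicate 1 on the log2 scale. For Colony biological replicate 2, 1 label field speaks of tumour cells while the title speaks of soft agar colonies. This array stayed in the Colony group, and the counts and calls that changed without it are given. With it left out, 1 Colony culture remains, and limma then takes the spread from the A16 cultures and assumes that the lone Colony culture varies like them.

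AP-1 is a dimer of leucine zipper proteins of the Fos and Jun families. Jun proteins can pair with each other, whereas Fos proteins bind DNA only with a partner, and the dimers act at short palindromic sites in genes of growth, migration and matrix breakdown. EGR proteins are zinc finger factors of GC-rich sites. Most of these genes are transcribed within minutes of serum, growth factor or stress signals, in large part through the serum response factor and its partners at CArG boxes, and their messengers are short-lived. In fibroblasts they are the classic readout of serum stimulation, and AP-1 is known to be needed for transformation by several oncogenes.

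In Colony cells 2 of the 17 probe sets were higher than in A16 cells, 1 of Fosb and 1 of Jun, and 2 were lower, 1 of Fos and that of Junb, at an adjusted p under 0.05 (limma, Benjamini-Hochberg over all 31042) and a fold change over 2. These 4 are 23.5% of the probe sets of the family, against 9.81% of all probe sets, with 4% of all called higher and 5.81% called lower. The family did not move as one: its median log2 fold change was -0.13, beside 0.05 over all probe sets. With no fold threshold 9 of the 17 had an adjusted p under 0.05, 4 of them higher and 5 lower, against 22.7% of all probe sets. The 3 Colony arrays lay all above the 3 A16 arrays for 4 of the 17 and all below for 6, and such separation was found for 45.9% of all probe sets. Without Colony biological replicate 2 the counts were 3 higher and 1 lower, since Fosl1 then passed and Junb did not. In bulk RNA, fewer cells of a kind and less RNA per cell cannot be told apart.

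**Figure D1:**
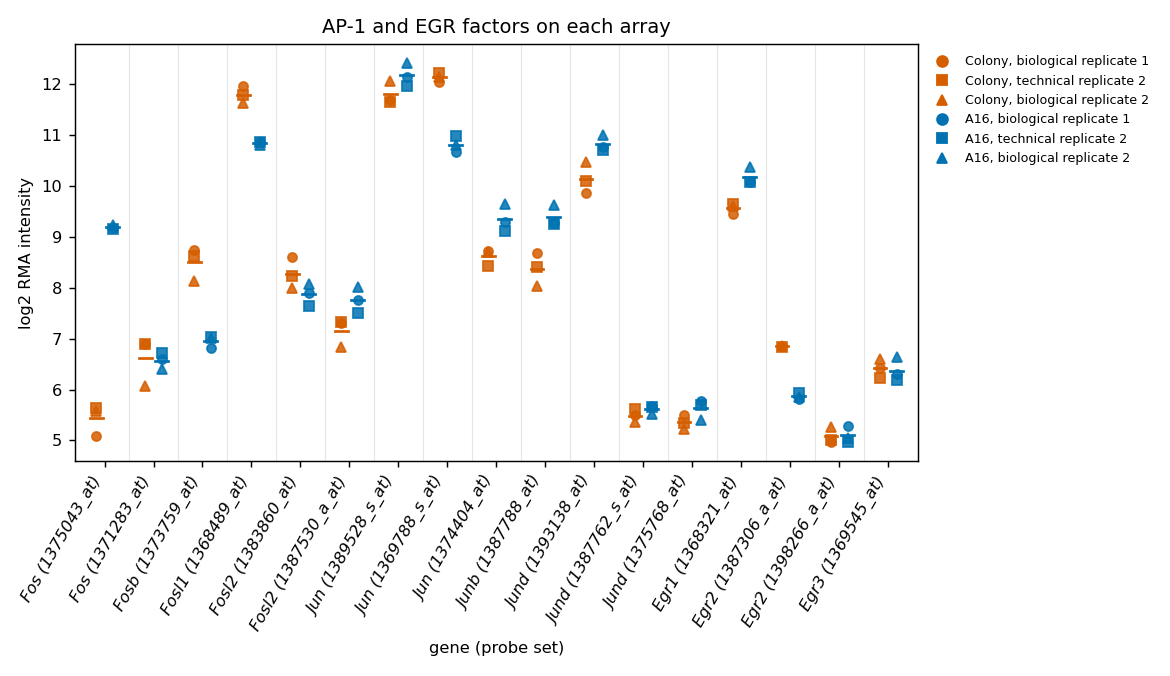
Log2 RMA intensity (vertical axis) of the 17 probe sets of the AP-1 and EGR factors (horizontal axis) on each of 6 arrays, with Colony arrays in orange on the left and A16 arrays in blue on the right of each column, the shape giving the replicate and bars the mean of 3 arrays. The Colony arrays of Fos 1375043_at lie far below the A16 arrays, those of Fosb lie above, and heights of different probe sets are not comparable.

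Fos, the founding member, whose protein pairs with Jun in response to serum, showed the widest gap of the family. For the probe set 1375043_at the RMA intensity was 34.2, 49.5 and 47.8 on the Colony arrays, against 580.8, 571 and 602 on the A16 arrays. The groups were far apart and all 3 A16 arrays lay close together. Fos fell by 3.73 on the log2 scale in Colony cells (standard error 0.14, 95% interval -4.06 to -3.40, adjusted p = 1.86e-05, limma, n = 2 cultures per group), 13.3-fold on the RMA scale, with 5.47 ± 0.15 in Colony and 9.20 ± 0.05 in A16 cells (log2 RMA, SD, n = 2). The Colony value lay at the 28.4 percentile of all probe sets and the A16 value at the 78.5 percentile, so the Colony level is in the dim range of the arrays. The files hold no detection call, so whether Fos was above background in Colony cells is not known, and the size of the fall depends on that background. With PLIER the same probe set had intensities of 35.6, 44.1 and 41.1 in Colony and 496, 490.3 and 558 in A16 cells.

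The other Fos probe set, 1371283_at, did not share this gap. It had 119, 119.6 and 66.8 on the Colony arrays and 97.3, 104.7 and 84.2 on the A16 arrays. The groups overlapped, with Colony biological replicate 2 the lowest of all 6, and the log2 fold change was -0.05 (standard error 0.27, 95% interval -0.69 to 0.60, adjusted p = 0.933). Without Colony biological replicate 2 it was 0.37 (adjusted p = 0.268). The log2 fold changes of the 2 Fos probe sets thus lay 3.68 apart, a distance that 0.420% of the 4525 genes with several probe sets reached, while the median distance was 0.55. Over the mean of both probe sets Fos was lower by a log2 fold change of -1.89 (standard error 0.15, adjusted p = 4.08e-05). The annotation gives different sequence accessions for them and no position along the transcript, so it is not known here which of them reads the Fos messenger better.

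Fosb, the closest relative of Fos, went the other way. Its single probe set, 1373759_at, had 429.7, 394 and 280.4 on the Colony arrays, against 113, 131 and 129.6 on the A16 arrays. Every Colony array lay above every A16 array, and Colony biological replicate 2 was the lowest of its group. Fosb rose by 1.43 on the log2 scale in Colony cells (standard error 0.20, 95% interval 0.97 to 1.90, adjusted p = 0.00303), or 2.70-fold.

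Fosl1, which encodes Fra-1, a Fos protein without the C-terminal activation domain that is abundant in many transformed mesenchymal cells, differed by just under 2-fold. Its RMA intensity was 3979, 3530 and 3192 in Colony cells, against 1872, 1878 and 1794 in A16 cells. The groups did not overlap and the A16 arrays were nearly alike. The log2 fold change was 0.92 (standard error 0.14, 95% interval 0.58 to 1.25, adjusted p = 0.00478), or 1.89-fold, so it passed the test but not the fold threshold. It passed both without Colony biological replicate 2, with a log2 fold change of 1.03. Fosl2, which encodes Fra-2, gave no common direction. The probe set 1383860_at had a log2 fold change of 0.28 (95% interval -0.17 to 0.73, adjusted p = 0.359), with 254 to 387 in Colony and 201 to 269 in A16 cells. The probe set 1387530_a_at had 158.5, 159.8 and 114 on the Colony arrays and 215.5, 182 and 258 on the A16 arrays, a log2 fold change of -0.75 (adjusted p = 0.0436) that stayed under the fold threshold, and the adjusted p was 0.153 without A16 biological replicate 2 and 0.178 without Colony biological replicate 2.

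Jun, the founding Jun protein and main partner of Fos, was measured by 3 probe sets that went in opposite directions. The probe set 1369788_s_at had 4253, 4806 and 4527 on the Colony arrays, against 1631, 2013 and 1783 on the A16 arrays. Every Colony array was at more than 2 times the level of the brightest A16 array, and this probe set rose by 1.33 on the log2 scale (standard error 0.13, 95% interval 1.03 to 1.63, adjusted p = 0.000652), or 2.52-fold. The probe set 1374404_at had 420.0, 346 and 419 on the Colony arrays, against 625, 557 and 797 on the A16 arrays. Here every Colony array was below, with a log2 fold change of -0.78 (standard error 0.18, 95% interval -1.20 to -0.36, adjusted p = 0.0205), under the fold threshold. The adjusted p was 0.0788 without A16 biological replicate 2 and 0.0806 without Colony biological replicate 1 and its technical array. The probe set 1389528_s_at, which shares its sequence accession with 1374404_at, had 3289, 3221 and 4277 in Colony and 4553, 3978 and 5477 in A16 cells. Its groups overlapped, and its log2 fold change was -0.37 (95% interval -0.83 to 0.09, adjusted p = 0.234).

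Over the mean of the 3 probe sets Jun had a log2 fold change of 0.06 (standard error 0.15, adjusted p = 0.817). Among genes with several probe sets, 140 of 4525 (3.09%) had an adjusted p under 0.05 in both directions, and Jun was one of them. The suffix _s_at marks a probe set whose probes can match more than 1 transcript, so the reading of both such Jun probe sets is uncertain.

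Junb, a Jun protein that often restrains Jun and growth, fell. Its RMA intensity was 413, 341 and 261 on the Colony arrays, against 623, 613 and 788 on the A16 arrays. The groups did not overlap, and Junb fell by 1.16 on the log2 scale in Colony cells (standard error 0.21, 95% interval -1.66 to -0.65, adjusted p = 0.00934), or 2.23-fold. The fold threshold was only just passed: the log2 fold change was -0.89 without Colony biological replicate 2, -0.98 without A16 biological replicate 2 and -0.91 with the technical arrays averaged with the biological replicate 2 cultures. Jund, the most steadily expressed Jun gene, did not pass in any of 3 probe sets. The probe set 1393138_at had 933, 1091 and 1429 on the Colony arrays, against 1733, 1662 and 2049 on the A16 arrays. All Colony arrays were lower, but the spread between cultures was wide and the log2 fold change of -0.64 had an adjusted p of 0.0648. The adjusted p in limma was 0.0118 with the technical arrays averaged with the biological replicate 2 cultures. It was 0.0243 with the replicate number as a block and 0.0706 with PLIER. Without Colony biological replicate 2 the log2 fold change was -0.89, still under the fold threshold. The other Jund probe sets lay between 37.5 and 49.3 in Colony and between 42.4 and 55.05 in A16 cells, and 1375768_at had a log2 fold change of -0.25 with RMA and 0.41 with PLIER, so that its direction is not settled.

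**Figure D2:**
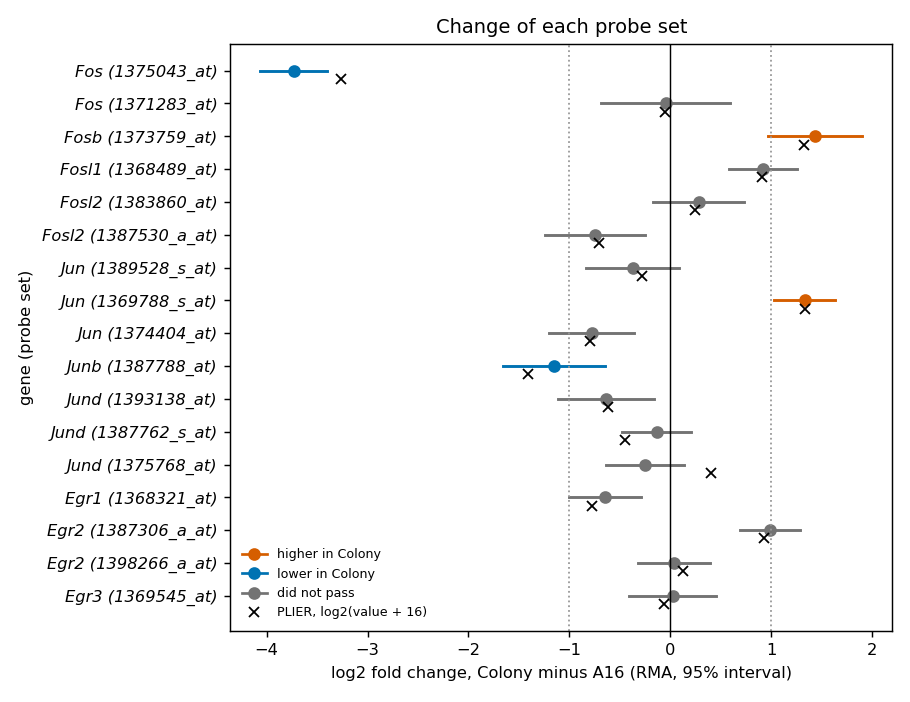
Log2 fold change of each probe set, Colony minus A16 (horizontal axis), for the 17 probe sets (vertical axis), from RMA with 95% intervals (n = 2 cultures per group) and from PLIER as crosses. Orange marks probe sets higher in Colony, blue lower and grey those that did not pass, the dotted lines are the fold threshold, and Fos 1375043_at at -3.73 lies apart from its other probe set at -0.05.

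The EGR genes are shown with the sequence before their start, since both Egr1 and Egr2 carry the CArG box to which serum response factor binds. The Egr1 probe set had a log2 fold change of -0.65 and the Egr2 probe sets had 0.99 and 0.04, all under the fold threshold. RefSeq promoter sequences of build GRCr8 matched 7 of the 10 genes. Fos, Jun and Egr3 had no match, so their promoters were not searched. For the matched genes the 250 bases before the start were searched on both strands. The motifs were the CArG box, the AP-1 site TGANTCA, the cAMP response element TGACGTCA and the EGR site GCGNGGGCG. No matches in these genes overlapped. Of 33469 promoters, 1.5% held a CArG box, 6.34% an AP-1 site, 1.59% a cAMP response element and 4.29% an EGR site. Capitals mark the CArG boxes of Egr1 (chr18:26736828-26737077, plus strand) and Egr2 (chr20:21054442-21054691, minus strand):
Egr1: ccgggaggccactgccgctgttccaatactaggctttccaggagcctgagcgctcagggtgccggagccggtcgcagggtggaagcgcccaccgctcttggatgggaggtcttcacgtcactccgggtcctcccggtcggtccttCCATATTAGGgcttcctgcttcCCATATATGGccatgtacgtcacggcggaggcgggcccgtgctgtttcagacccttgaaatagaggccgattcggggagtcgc
Egr2: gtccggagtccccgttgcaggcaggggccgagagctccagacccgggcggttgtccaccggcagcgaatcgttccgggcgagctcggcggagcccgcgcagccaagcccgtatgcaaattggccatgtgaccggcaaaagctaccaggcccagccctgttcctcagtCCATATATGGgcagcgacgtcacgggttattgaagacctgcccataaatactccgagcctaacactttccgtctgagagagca
Egr1 held 2 CArG boxes, the nearer one running from base 83 to base 74 before the start, and Egr2 held 1 at the same distance with the same letters. The promoter of Jund (chr16:18769772-18770021, minus strand) is shown for contrast as that of a gene without a CArG box in this window, with a cAMP response element in capitals:
Jund: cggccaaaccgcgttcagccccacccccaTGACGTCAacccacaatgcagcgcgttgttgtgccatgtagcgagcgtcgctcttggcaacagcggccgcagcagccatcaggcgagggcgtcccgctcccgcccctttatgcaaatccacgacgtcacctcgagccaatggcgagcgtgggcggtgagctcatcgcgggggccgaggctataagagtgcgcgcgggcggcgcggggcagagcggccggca
It also held 3 EGR sites. Fosl2 held 1 EGR site, and Fosb, Fosl1 and Junb held none of the 4 motifs in this window. A match is a description of letters and no evidence of binding in these cells.

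Egr1, the EGR factor that serum induces most widely, had RMA intensities of 696, 807 and 779 in Colony cells, against 1079, 1081 and 1325 in A16 cells. All Colony arrays lay below all A16 arrays. The log2 fold change was -0.65 (standard error 0.15, 95% interval -1.003 to -0.29, adjusted p = 0.0222), or 1.57-fold, which passed the test but not the fold threshold. The adjusted p was 0.112 without A16 biological replicate 2, 0.0808 without Colony biological replicate 1 and its technical array, and 0.0656 without Colony biological replicate 2. Egr2, which is known for its part in myelination and in the response of fibroblasts to growth signals, had 116.4, 114 and 116.1 on the Colony arrays of 1387306_a_at, against 56.1, 61.3 and 57.9 on the A16 arrays. This probe set was very even within both groups. It had Colony above A16 on every array, and its log2 fold change of 0.99 (standard error 0.13, 95% interval 0.69 to 1.29, adjusted p = 0.00218) stopped just short of the threshold. The second Egr2 probe set, 1398266_a_at, had 31.3 to 38.7 in Colony and 31.4 to 39.1 in A16 cells, and its log2 fold change was 0.04 (95% interval -0.32 to 0.40, adjusted p = 0.897). It lay at the 20 percentile in Colony and the 20.9 percentile in A16 cells, so it is not known to be above background in either group. The A16 level of 1387306_a_at was also dim, at the 37.6 percentile, so the size of its rise depends on that background. Egr3, a factor of muscle spindle development and of lymphocytes, had 85.6, 75.2 and 97.2 in Colony and 78.7, 72.8 and 99.4 in A16 cells. The groups overlapped, and its log2 fold change was 0.03 (95% interval -0.41 to 0.46, adjusted p = 0.945).

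By members, and over the mean of each gene's probe sets, 3 of the 10 genes passed, namely Fosb higher and Fos and Junb lower, beside 8.30% of 14217 genes. Fosl1 (log2 fold change 0.92), Egr1 (-0.65) and Egr2 (0.51) had an adjusted p under 0.05 in that fit with a fold change under 2.

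Over all probe sets the SD of the log2 difference between arrays was 0.225 to 0.331 within Colony, 0.174 to 0.305 within A16 and 0.673 to 0.762 between the groups. The 3′ end of control genes exceeded their 5′ end by more on the Colony arrays than on the A16 arrays. Each array carries control probe sets for the 3′ and the 5′ end of beta-actin, Gapdh and hexokinase. For beta-actin the 3′ probe set exceeded the 5′ probe set by 2.096, 2.06 and 1.91 on the log2 scale on the Colony arrays, against 0.47, 0.51 and 0.48 on the A16 arrays. For Gapdh the difference was 0.79, 0.48 and 0.15 on the Colony arrays, against -0.04, -0.08 and 0.02 on the A16 arrays. For hexokinase it was 2.98, 2.41 and 2.27 on the Colony arrays, against 1.16, 1.40 and 0.80 on the A16 arrays. All Colony arrays lay above all A16 arrays for the 3 controls. This difference runs with the groups, so it can bear on every comparison of Colony with A16, also for genes with 1 probe set such as Fosb and Junb. Its part in those results, and in those for Fos, Jun, Fosl2 and Egr2, whose probe sets disagreed, was not tested.

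**Figure D3:**
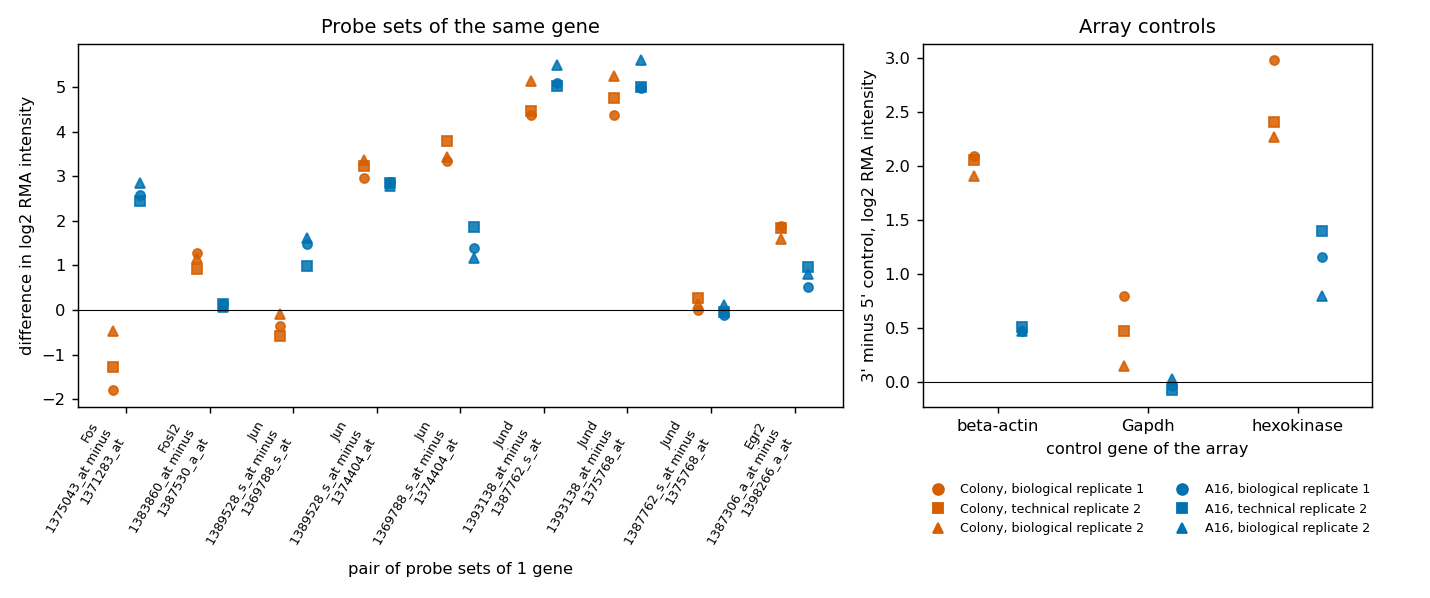
Left, difference in log2 RMA intensity (vertical axis) between each pair of probe sets of 1 gene (horizontal axis) on the 6 arrays. Right, difference between the 3′ and 5′ control probe sets of 3 control genes. Orange symbols are Colony and blue symbols A16 arrays, and the shape gives the replicate. The groups are apart for every pair of Fos, Fosl2, Jun and Egr2, and for all 3 controls the Colony arrays lie above the A16 arrays, and only the gap between groups can be read, not the height.

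Among the relatives of AP-1, leucine zipper factors that pair with Fos or Jun proteins or compete for their sites, 3 of 13 probe sets (10 of 13 listed genes) were lower in Colony cells and 0 higher, beside 5.81% of all probe sets lower and 4% higher, with a median log2 fold change of -0.54. Atf3, a stress-induced repressor, had 105, 124 and 105.2 on the Colony arrays, against 401, 375 and 387 on the A16 arrays, a log2 fold change of -1.82 (adjusted p = 0.000193). The small Maf proteins Mafk and Maff, which lack an activation domain, had log2 fold changes of -1.34 and -1.23 (adjusted p = 0.000637 and 0.00762). The remaining 10 probe sets, those of Atf2, Batf, Batf3, Jdp2, Maf, Mafg and Bach1, did not pass. Of the EGR relatives and corepressors, 1 of 7 probe sets was lower and 0 higher (14.3% called, beside 9.81% of all probe sets). It was 1377223_at of Wt1, a zinc finger factor of related sites, at -1.66 (adjusted p = 0.000374). In Colony cells this probe set lay at 33.0 to 41.8, not known to be above background, so the size of its fall depends on that background. The other Wt1 probe set had -0.45 (adjusted p = 0.0496). The corepressor Nab2, itself a target of EGR factors, had 2748, 2818 and 2449 in Colony and 1469, 1541 and 1312 in A16 cells, a log2 fold change of 0.89 (adjusted p = 0.00581) under the fold threshold. Nab1 had -0.34 and -0.18, and Egr4 0.10 and -0.09, and none of these passed.

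Of the factors and kinases upstream of these genes, 1 of 29 probe sets (12 of 16 listed genes) was higher and 1 lower, or 6.9%, near the 9.81% of all probe sets, with a median log2 fold change of -0.05. The one that was higher belonged to Elk3, a ternary complex factor that joins serum response factor (1.28, adjusted p = 0.00120), while its other 3 probe sets ran from -0.21 to 0.41 and did not pass. The one that was lower was 1395378_at of Srf, serum response factor itself, with 59.1, 54.3 and 50.7 on the Colony arrays and 119, 79.6 and 311.5 on the A16 arrays (-1.70, adjusted p = 0.0441), where A16 biological replicate 2 lay far above the other A16 arrays. Without Colony biological replicate 2 this list had 2 probe sets higher and 0 lower. The other Srf probe sets had -0.53 and -0.50. These are transcript levels, and the activity of the kinases was not measured by the arrays.

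Of other immediate early genes, 6 of 20 probe sets (13 of 14 listed genes) were lower and 1 was higher, beside 5.81% and 4% of all probe sets, with a median log2 fold change of -0.24. Ccn1, a matricellular protein induced by serum and by stretch, had 100.5, 162 and 161 on the Colony arrays, against 5643, 5669 and 6444 on the A16 arrays, the widest gap among them (log2 fold change -5.40, standard error 0.16, adjusted p = 1.34e-05). Dusp1, a phosphatase that switches off MAP kinases, was lower by a log2 fold change of -2.75 in 1368147_at (adjusted p = 4.76e-05), while its other probe set had -0.93 (adjusted p = 0.00480) under the fold threshold. Gadd45b, a stress-induced growth arrest protein, was lower at -2.004 (adjusted p = 0.000137). Ier2, a nuclear protein of the serum response, was lower at -1.52 (adjusted p = 0.00702). The probe sets of Ier5 disagreed like those of Jun, with 1.05 (adjusted p = 0.00216), -1.07 (adjusted p = 0.00540) and 0.19 (adjusted p = 0.430). Arc was also lower, at -1.40 (adjusted p = 0.00346). Zfp36 at -0.89 (adjusted p = 0.0406) and Myc at -0.86 (adjusted p = 0.00510) passed the test but not the fold threshold. Nr4a1, Nr4a2, Nr4a3, Ier3 and Mcl1 passed neither.

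**Figure D4:**
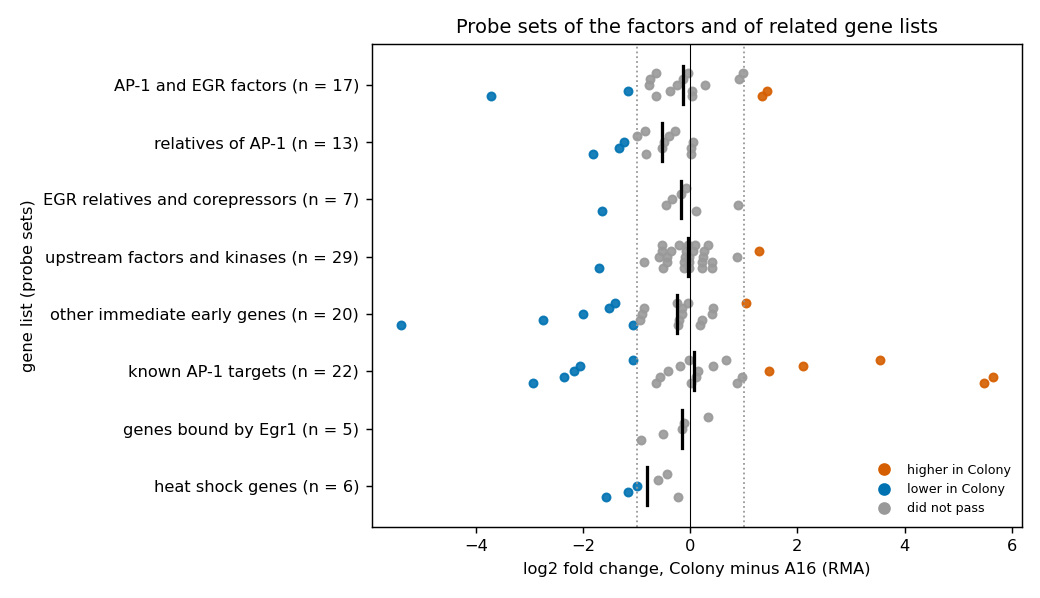
Log2 fold change of single probe sets, Colony minus A16 (horizontal axis), in 8 gene lists (vertical axis, with the number of probe sets). Orange marks probe sets higher in Colony, blue lower and grey those that did not pass, each bar is the median of its list and the dotted lines are the fold threshold; known AP-1 targets spread to both sides, from -2.93 to 5.65.

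Of the genes known as targets of AP-1, 5 of 22 probe sets (16 genes) were higher and 5 lower, with a median log2 fold change of 0.06, and without Colony biological replicate 2 the counts were 5 higher and 4 lower. The matrix proteases Mmp10, Mmp3 and Mmp13 were higher, with log2 fold changes of 5.65, 5.48 and 2.102 (adjusted p = 6.61e-06, 2.34e-05 and 0.000127). In A16 cells Mmp10 and Mmp3 lay at 43.5 to 48.7 and at 30.3 to 48.2, not known to be above background, so the size of their rise depends on that background. Also higher was the secreted matrix protein Spp1 with 3.54 (adjusted p = 0.000121). The study's own quantitative PCR also placed Spp1 higher in Colony than in A16 cells. It placed Mmp3 lower in Colony cells, opposite to the arrays. The chemokine Ccl2 was lower (-2.93, adjusted p = 6.07e-05), as were the growth factor Hbegf (-2.35, adjusted p = 0.000958), the prostaglandin synthase Ptgs2 (-2.17, adjusted p = 0.00127) and the cytokine Il6 (-2.06, adjusted p = 0.000199). In Colony cells Il6 lay at 23.9 to 40.8, not known to be above background, so the size of its fall depends on that background. The list had 45.5% of its probe sets called, beside 9.81% of all. Several of these genes were known to have moved in these arrays when the list was written. Of the genes bound by Egr1, 0 of 5 probe sets (5 of 8 listed genes) passed in limma, and at an unadjusted p under 0.05 there were 2, beside 10554 of all 31042 probe sets. These 5 were Pdgfa, Tgfb1, F3, Icam1 and Fgf2, with log2 fold changes from -0.93 to 0.34.

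Heat shock genes, which stress and handling of cells can induce, were lower in 3 of 6 probe sets (4 of 6 listed genes) and higher in 0. Of all probe sets 5.81% were lower and 4% higher. The median log2 fold change of the heat shock probe sets was -0.80. Hsph1 had -1.57 (adjusted p = 0.00107) in 1385620_at and -0.43 (adjusted p = 0.0609) in 1388898_at. Hspb1 had -1.16 (adjusted p = 0.00132), while Hspa1a had -0.60 (adjusted p = 0.0313) and Dnajb1 -1.002 and -0.23. All 6 probe sets lay lower on every Colony array than on any A16 array, and so did 6362 of all 31042 probe sets. The time from handling to lysis differed between Colony and A16 cells by design. Its part in the levels of the immediate early genes cannot be told apart from the growth condition or the karyotype.

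Of the fibroblast markers, 11 of 12 genes lay above the array median in both groups, but 9 of 18 probe sets, collagens, Thy1 and Fn1, were lower in Colony cells and 0 higher, and 8 were lower without Colony biological replicate 2. Of all probe sets 5.81% were lower and 4% higher. Not all markers fell: Pdgfra was higher under the fold threshold (log2 fold change 0.55, adjusted p = 0.0232). Vim and S100a4 both had 0.16 and did not pass, nor did Pdgfrb, P4hb and Fap. The summed RMA level of the 12 fibroblast marker genes, 1 probe set each, was 70200 to 73940 on the Colony arrays, against 98680 to 110900 on the A16 arrays. Of the leukocyte markers 1 of 11 probe sets was higher, that of Csf1r, or 9.09%, near the 9.81% of all probe sets. The summed level of 8 genes was 1676 to 1757 on the Colony arrays, against 1268 to 1466 on the A16 arrays. Csf1r alone had 538 to 824 on the Colony arrays and 34.39 to 44.85 on the A16 arrays. Cd14 had 534 to 697 on the Colony arrays and 891 to 1020 on the A16 arrays (log2 fold change -0.56, adjusted p = 0.0366), and the defining leukocyte gene Ptprc lay, over its 2 probe sets, at 16.8 to 42.3 in Colony and 16.9 to 38.4 in A16 cells. Of 7 epithelial probe sets 1 was higher, that of Krt8 (14.3% called, beside 9.81% of all probe sets). The summed level of 6 genes was 3154 to 3913 on the Colony arrays, against 909 to 1014 on the A16 arrays. Krt8 alone had 2891 to 3668 on the Colony arrays and 669 to 794 on the A16 arrays. Krt18, Krt14 and Krt5 had log2 fold changes of 0.01, -0.02 and 0.09 and did not pass. Cdh1 1386947_at had 44.9 to 49.0 on the Colony arrays and 26.5 to 30.6 on the A16 arrays (log2 fold change 0.74, adjusted p = 0.00979), and Epcam 21.9 to 22.9 in Colony and 22.6 to 26.4 in A16 cells. None of 4 endothelial and 4 skeletal muscle probe sets passed, and 1 skeletal muscle probe set was lower without Colony biological replicate 2. The part of these marker differences in the levels of the AP-1 and EGR factors was not tested.

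Genes whose values ran most like those of a factor over the 6 arrays were, for Fos 1375043_at, Ccn1, Arhgap24 and Isg15 (Pearson r 0.9999, 0.9998 and 0.9992), for Fosl1, Synm, Osbpl2 and Ppm1b (0.9994, 0.998 and 0.9975) and, for Egr1, Thap3, Lrp11 and Rbbp6 (0.9955, 0.9955 and 0.9954). The search covered 87, 2355 and 4312 probe sets above the median level that varied at least as much as the factor. Since the arrays form 2 groups, most of each r reflects the gap between Colony and A16, and these values are a description.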

How the data were processed

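Colony and A16 RNA was measured on 6 Affymetrix Rat 230_2 arrays. The authors read the images with GeneChip Operating Software, summarised probe sets with RMA and with PLIER in Avadis, and deposited both as linear intensity. Which versions of RMA, PLIER and Avadis were used is not given in the sources used here. The RMA values ran from 11.6 to 25775, and their log2 was taken with nothing added. Array medians lay between 97.6 and 101.3. After 57 controls were left out, 31042 probe sets were fitted with 2 cultures per group in limma 3.58.1 (lmFit, eBayes; R 4.3.3), dim ones included, with Benjamini-Hochberg adjustment over all of them. Symbols were updated through the gene identifier with the RefSeq table of GRCr8. The paper states that the arrays were repeated 2 times both biologically and technically, but not how the cultures were started. The p-values measure the spread between cultures, and having only 2 cultures per group limits the precision. No scan date was given, so no array batch was tested. Members and gene lists were chosen with earlier results of these data known. In each list, called genes are named, at most 4 by size, and any member of a list of 6 or fewer; some further list genes and the leading marker genes were named after their values were seen. The fit was tested on simulated data: of 31042 probe sets, those changed by a log2 fold change of 1, 2 and 3 were called in 10.8%, 61.4% and 87.5% of cases, and 1 of 30842 unchanged ones was called. Figures were drawn with matplotlib 3.10.9. Alternatives were PLIER, other uses of the technical arrays, blocks, leaving out replicates, a filter on dim probe sets, other scalings, another prior and the methods' t-test.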

Additional observations from a re-analysis of the deposited data

How the results depend on the processing

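Fos 1375043_at, Fosb and Jun 1369788_s_at kept their direction and their side of both thresholds under all 16 alternatives run on them with limma, with log2 fold changes from -3.87 to -3.26, from 1.16 to 1.71 and from 1.32 to 1.36. Junb was under the fold threshold in 3 alternatives, so that 1 probe set of the family in place of 2 was lower with technical arrays averaged with replicate 2 cultures, without A16 replicate 2 and without Colony replicate 2; leaving out each replicate in turn gave 1 to 2 lower. Each such fit leaves 1 culture in a group, assumed to vary like the other group. Egr2 1387306_a_at passed with PLIER as log2(value) (1.02, chosen after seeing the data), with technical arrays averaged with replicate 2 cultures (1.00) and with them left out (1.03). The methods' t-test on 2 cultures at an unadjusted p called 3 probe sets of the family, 1 of them lower, and 2383 of all; after Benjamini-Hochberg it called 0 of the family, 0 higher and 0 lower, and 0 of all, while limma called 4 and 3045. On 6 arrays, with technical arrays taken as separate samples, it found 4 after adjustment. The replicate number as a fixed replicate block gave 4 probe sets of the family and 3121 of all, and changed no call of the family; deviations of cultures with the same number correlated at -0.148 over probe sets, and the crossed pairing, chosen after seeing the data, gave 4 and 3135. Other scalings moved the median of all probe sets by less than 0.1. The simulation changed only 74, 70 and 56 probe sets by a log2 fold change of 1, 2 and 3. In the data 22.7% of all probe sets had an adjusted p under 0.05, so the adjusted p was harder to reach in the simulation. A true log2 fold change of 1 also lies on the fold threshold itself. The simulated rates therefore do not carry over to these data, and a factor that did not pass may still have changed.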
